A study of Rattus norvegicus with 30 samples.

Results

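Of 34 genes listed as markers of macrophages and other myeloid cells, 32 were measured in the oesophageal epithelium of rats, out of 14217 genes in all. They were picked by name, and for each gene the probe set with the highest mean over all arrays was used. Vsig4, a complement receptor of tissue macrophages, and Msr1, a scavenger receptor, were not measured here. The 32 measured genes fall by role into scavenger and efferocytosis receptors (Cd163, Mrc1, Stab1, Trem2), complement C1q and complement receptors (C1qa, C1qb, C1qc, C3ar1, C5ar1), lineage and surface receptors (Csf1r, Adgre1, Cd14, Fcgr2b) and activating adaptors (Tyrobp, Fcer1g). The others serve the lysosome and phagosome (Cd68, Ctss, Lgmn, Laptm5, Lyz2, Mpeg1), the NADPH oxidase (Cybb, Cyba), leukocyte adhesion and the leukocyte cytoskeleton (Itgb2, Itgam, Lcp1, Coro1a, Aif1, Cd53), or costimulation and activation (Cd83, Cd86, Plac8).

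The arrays came from 30 male Sprague-Dawley rats, and all rats, controls included, received NMBA (N-nitrosomethylbenzylamine, a carcinogen of the rodent oesophagus) as 4 weekly doses of 2 mg/kg from week 5. Rats entered the study at 4 weeks of age on a zinc-deficient diet (ZD, fed ad libitum) or a zinc-sufficient diet (ZS, pair-fed to the deficient rats, which ate less). Knockout rats lacked miR-31 in all cells (miR-31-/-, made with CRISPR/Cas9 in the Sprague-Dawley strain), with 6 on ZD and 4 on ZS. Their miR-31+/+ littermates were not analysed here. Rats without a gene edit formed 4 groups of 5. Of these, the 5-week antimiR group (ZD) received an LNA oligonucleotide against miR-31 in PBS by tail vein, starting at 20 mg/kg and followed by 9 injections of 6 mg/kg within 5 weeks. The 20-week antimiR group (ZD) received 20 further doses, and the ZD and ZS controls were untreated, so no control oligonucleotide was given. The labels place the tissue 15 weeks after the first NMBA dose and, in antimiR rats, 48 h after the last antimiR dose. For the 5-week rats they do not settle which of these times held. It is thus not clear whether their tissue was taken at the age of the other groups.

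Macrophages derive from blood monocytes or from precursors seeded in tissues before birth, and they need signals through the receptor Csf1r to survive. They engulf dead cells and debris that carry C1q or are bound by scavenger receptors, digest them in lysosomes, and sense damage through receptors that signal over the adaptors Tyrobp and Fcer1g. In the oesophagus they lie mostly in the connective tissue beneath the squamous epithelium, and their number is known to grow in inflamed and neoplastic mucosa. Many of the listed genes are not theirs alone: neutrophils, monocytes and dendritic cells share the integrins, the NADPH oxidase and the adaptors, Lcp1, Coro1a and Cd53 are found in most leukocytes, and Lgmn, Cyba and Cd68 are also found in other cells.

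The microRNA that the antimiR binds and the knockout removes is shown here because every treated or edited group is defined by it. Its mature sequence in RefSeq (GRCr8, chr5:108714906-108714927, minus strand) has 22 bases, and the capitals mark the seed, bases 2 to 8, through which it pairs with targets.
rno-miR-31a-5p: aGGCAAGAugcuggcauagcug
No probe set for miR-31 was used, so neither the loss of the microRNA nor its blockade could be checked on these arrays.

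Values are log2 expression, so a difference of 1 is a 2-fold change. The median of an array was 5.81 to 5.93 in knockout rats (10 arrays) and 5.37 to 5.45 in unedited rats (20 arrays), as if the sets had been normalized apart, so knockout and unedited arrays were not tested against each other. The words rose and fell are kept for genes with an adjusted p under 0.05 by limma, over all 14217 genes. This scale has no zero, so a low value does not show absence; Cd163, Adgre1, Cd86, C3ar1, Trem2 and Itgam were among the dimmest 30% of genes. The tissue is bulk RNA, so fewer macrophages, less RNA per macrophage and less tissue from beneath the epithelium in a sample cannot be told apart. The mean of 13 smooth muscle genes ran from 7.49 to 10.70 on unedited arrays and from 9.54 to 11.89 on knockout arrays.

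The mean of the 32 genes on each array gave the broad pattern. On ZD with the miR-31 knockout, the array means lay between 6.62 and 7.20, with a median of 7.01, and on ZS with the knockout they were 6.96, 7.68, 8.77 and 7.41 on arrays 30 to 33. Array 32 stood above every other knockout array and array 30 lay within the range of the ZD knockout arrays. After 5 weeks of antimiR the means were 6.87, 6.45, 6.21, 6.57 and 6.06, after 20 weeks 6.20, 6.13, 6.19, 6.01 and 6.27, in untreated ZD rats 6.72, 6.62, 6.57, 6.65 and 6.77 and in untreated ZS rats 6.52, 6.45, 6.27, 6.26 and 6.47. All 5 arrays of the 20-week group lay below all 5 of the untreated ZD group, whereas the 5-week group spanned both. The untreated ZD arrays all lay above the untreated ZS arrays. Set against its own array's median, the mean stood 0.81 to 1.33 higher on ZD knockout arrays, 1.10 to 2.84 on ZS knockout arrays, 1.13 to 1.35 in untreated ZD rats and 0.84 to 1.08 in untreated ZS rats.

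**Figure D1:**
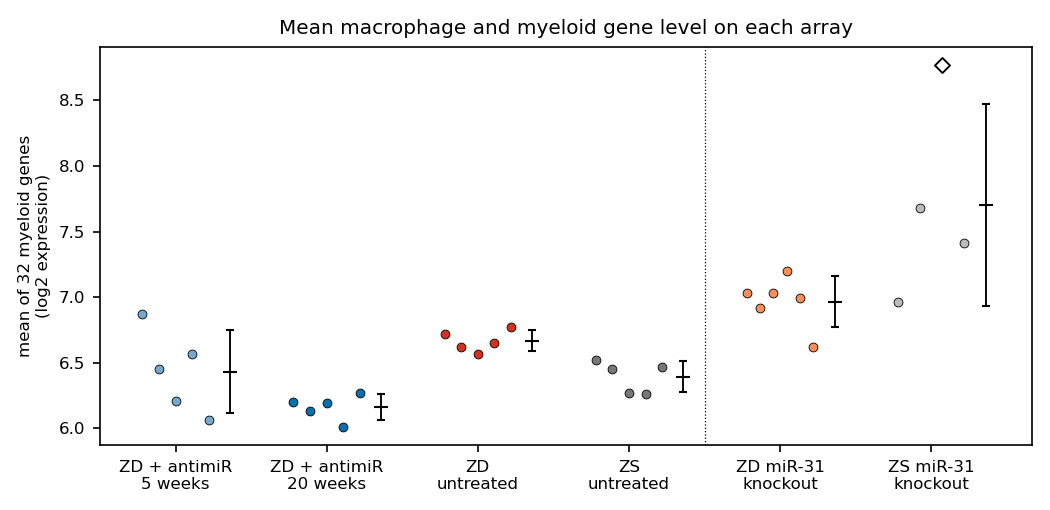
Mean log2 expression of the 32 measured myeloid genes on each of the 30 arrays, by group; circles are arrays, the open diamond is ZS knockout array 32, lines beside the points are the group mean ± SD, and the dotted line separates unedited from knockout rats. The ZS knockout arrays span 6.96 to 8.77, with array 32 at the top, and the 20-week antimiR arrays lie between 6.01 and 6.27, below the untreated ZD arrays at 6.57 to 6.77.

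Spread within groups differed too. The standard deviation (SD) of a gene between arrays had a median over the 32 genes of 0.23 in ZD knockout rats, 0.74 in ZS knockout rats, 0.39 after 5 weeks of antimiR, 0.22 after 20 weeks, 0.19 in untreated ZD rats and 0.22 in untreated ZS rats. Over all genes the median SD was 0.12 to 0.16 in each group. Without array 32 the ZS knockout median SD was 0.38. The fit of all arrays uses 1 spread per gene for all groups, so its SEs do not follow the wider spread of the ZS knockout group. Fits of only the groups compared are also reported. In the 5-week group, array 6 was the highest of its group for 23 of the 32 genes and array 10 the lowest for 19. In ZD knockout rats, array 37 was the highest for 21 genes and array 39 the lowest for 22.

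Array 32 was the highest of the 4 ZS knockout arrays for 32 of 32 genes, against 28.4% of all genes. Its excess over the mean of the other 3 had a median of 1.38 over the 32 genes and -0.06 over all genes. It exceeded 1 for 26 of the 32, against 4.45% of all genes. The largest excesses were 2.72 for Plac8, a protein of differentiating myeloid cells, 2.70 for Lyz2, lysozyme, 2.51 for Coro1a, an actin regulator of leukocytes, and 2.40 for Adgre1, which encodes the F4/80 antigen. Other markers moved with it on the same array: the median excess was 1.67 over 11 T cell genes, 1.36 over 12 fibroblast genes, 0.83 over 11 endothelial genes, 0.70 over 13 smooth muscle genes and 0.64 over 5 B cell genes. It was -0.19 over 7 neutrophil genes and -0.30 over 13 epithelial genes. Counts and calls that use the ZS knockout group are therefore given with array 32 and without it; what set the array apart was not tested.

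**Figure D2:**
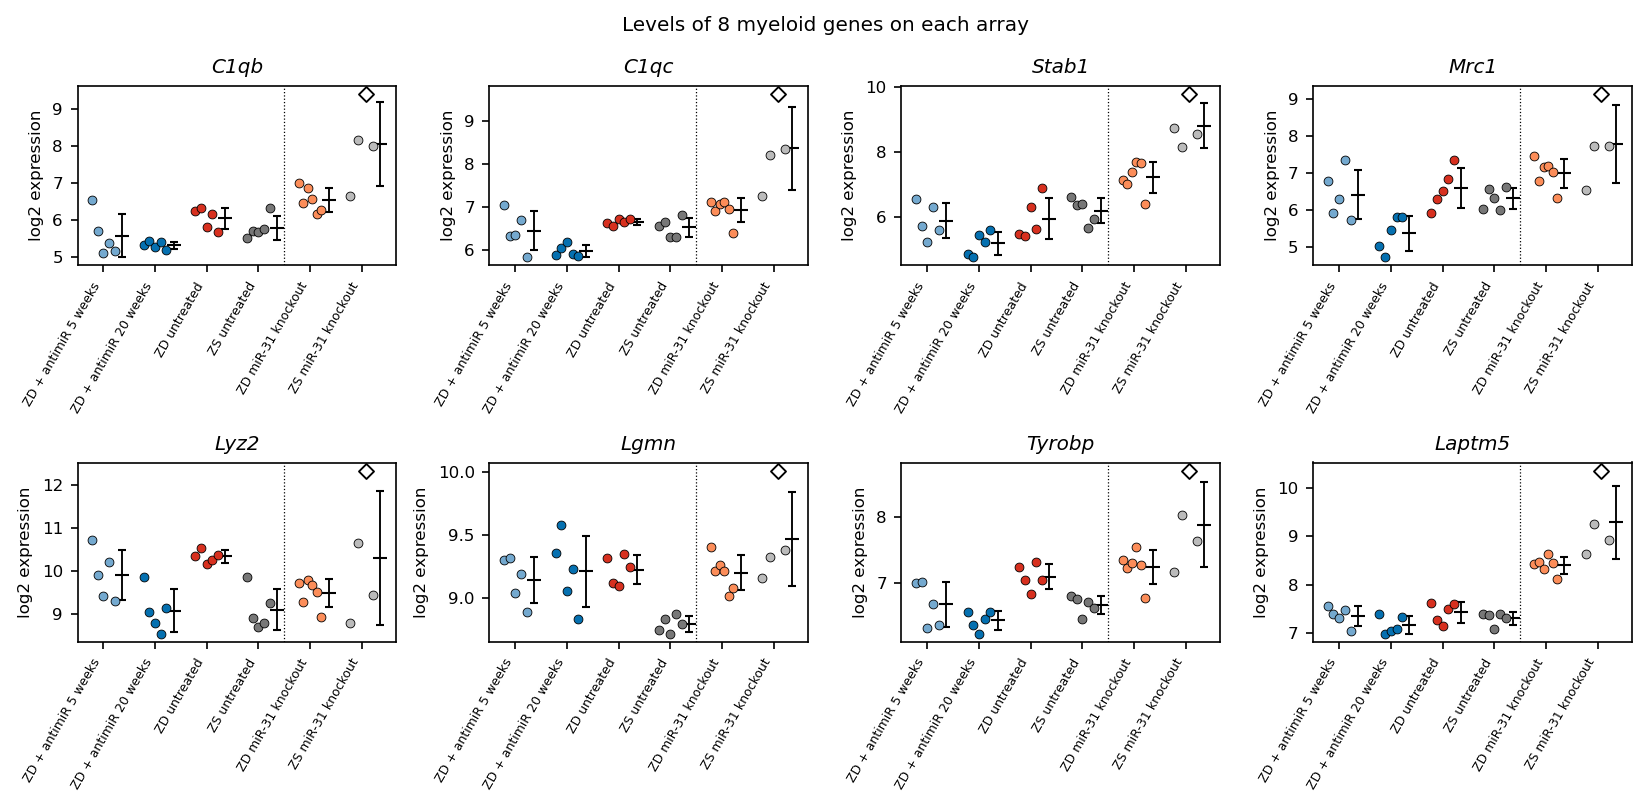
Log2 expression of C1qb, C1qc, Stab1, Mrc1, Lyz2, Lgmn, Tyrobp and Laptm5 on each array, by group; circles are arrays, open diamonds are ZS knockout array 32, and lines beside the points are the group mean ± SD. Array 32 is the top knockout point in all 8 panels, Lyz2 is lower in every 20-week antimiR rat than in any untreated ZD rat, and Lgmn is higher in every untreated ZD rat than in any untreated ZS rat.

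Zinc deficiency in untreated, unedited rats went with higher values for 26 of the 32 genes, against 50.8% of all genes, and the median difference was 0.25, against 0.004 over all genes. Lyz2 and Lgmn rose, and none fell: 2 of 32 called higher and none lower compares with 6.94% and 6.95% of all genes, so the share of calls was near the background. Lyz2, the lysozyme of macrophages, had 10.35, 10.54, 10.16, 10.26 and 10.37 in ZD rats, against 9.86, 8.90, 8.70, 8.79 and 9.25 in ZS rats. The groups did not overlap, and the difference was 1.24 (SE 0.41, adjusted p = 0.0421 by limma), or 2.36-fold. Lgmn, the lysosomal protease legumain, had 9.32, 9.12, 9.10, 9.35 and 9.25 in ZD rats, against 8.75, 8.84, 8.72, 8.88 and 8.80 in ZS rats. It too showed no overlap, with a difference of 0.43 (SE 0.13, adjusted p = 0.0259 by limma). A second, dimmer probe set of Lgmn differed by -0.05 (adjusted p = 0.865 by limma over all probe sets).

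Plac8 and Cybb had the next largest differences and did not pass. Plac8 had 7.48, 7.35, 7.55, 7.15 and 7.27 in ZD rats, against 6.92, 5.98, 6.32, 6.80 and 5.86 in ZS rats, a difference of 0.99 (adjusted p = 0.0641 by limma). Cybb, the catalytic subunit of the phagocyte NADPH oxidase, had 7.35, 7.34, 7.07, 7.06 and 7.20 in ZD rats, against 6.66, 6.37, 6.12, 6.23 and 6.76 in ZS rats, a difference of 0.77 (adjusted p = 0.0612). Both genes were higher in each ZD rat than in any ZS rat. This held for 9 of the 32 genes, against 5.91% of all genes; the others were Lyz2, Lgmn, Cd53, Cd86, Tyrobp, C5ar1 and C1qa. Among other macrophage markers, C1qa differed by 0.48 with groups apart. With overlapping groups, Adgre1 differed by 0.44, Mrc1, the mannose receptor, by 0.28, Cd68, a lysosomal membrane protein, by 0.27, Cd163 by 0.08 and Csf1r by -0.06.

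Both calls depended on single arrays. Leaving out 1 array at a time left 0 or 1 of the 2 calls, with 0 left without ZD array 11, ZD array 14 or ZS array 18, against 4.29% to 8.38% of all genes called higher in these fits. A fit of these 10 arrays alone called 10 of the 32 higher, against 6.08% of all genes. Smooth muscle genes moved far more, and the other way: 11 of 13 fell in ZD rats, with a median of -2.27, and their mean level lay between 7.49 and 8.58 in ZD rats, against 9.24 to 10.70 in ZS rats. With that level as a covariate none of the 32 passed and their median difference was 0.42, while the share of all genes called was 0.598% higher and 0.556% lower. The level did not overlap between these diet groups, so this fit cannot fully separate diet from smooth muscle level. Lists of other leukocytes and of vessels were also mostly above 0 in ZD rats: 7 of 7 dendritic genes (median 0.27), 9 of 11 T cell genes (median 0.24) and 9 of 11 endothelial genes (median 0.24), of which 2 endothelial genes rose. Their part in the result was not tested.

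Both antimiR groups were set against the same 5 untreated ZD arrays, so those comparisons share their controls. After 5 weeks of antimiR, 27 of the 32 genes were lower than in untreated ZD rats, against 48.5% of all genes, with a median of -0.23. None passed by limma (smallest adjusted p = 0.645), as was true of all genes (0%), and 2 genes, Tyrobp and Cyba, had an unadjusted p under 0.05, against 3.33% of all genes. Without 5-week array 6 the median was -0.36. After 20 weeks, 30 of the 32 were lower than in untreated ZD rats, against 51.4% of all genes, with a median of -0.58. Again none passed by limma (smallest adjusted p = 0.0751), against 0.485% of all genes called lower and 0.162% higher. At an unadjusted p under 0.05 there were 18, against 8.2% of all genes, and 17 did not overlap with the untreated group, against 1.73% of all genes.

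The largest 20-week differences were those of Lyz2, Mrc1 and Plac8. Lyz2 had 9.86, 9.04, 8.80, 8.54 and 9.13 after 20 weeks, against 10.35, 10.54, 10.16, 10.26 and 10.37 in untreated ZD rats, a difference of -1.27 (SE 0.41, adjusted p = 0.135 by limma). Mrc1 had 5.03, 4.72, 5.47, 5.80 and 5.80, against 5.91, 6.30, 6.52, 6.84 and 7.34, a difference of -1.22 (SE 0.35, adjusted p = 0.0978). Every 20-week value of both genes lay below every untreated ZD value. Plac8 had 6.43, 6.59, 6.19, 6.04 and 6.57 after 20 weeks, against 7.48, 7.35, 7.55, 7.15 and 7.27 in untreated ZD rats, a difference of -0.99 (SE 0.36, adjusted p = 0.175 by limma). The gene nearest the threshold was C5ar1, the receptor for the complement fragment C5a, with 6.06, 5.94, 5.85, 5.76 and 5.82 after 20 weeks, against 6.54, 6.77, 6.44, 6.73 and 6.65 in untreated ZD rats. Its groups were apart, and the difference was -0.74 (SE 0.20, adjusted p = 0.0751 by limma).

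By role, the complement genes C1qa, C1qb and C1qc differed by -0.96, -0.72 and -0.68 after 20 weeks, and Csf1r, the receptor for colony-stimulating factor 1, by -0.71. C1qa had 6.97, 7.19, 7.12, 6.79 and 6.76 after 20 weeks, against 7.97, 7.98, 7.85, 8.03 and 7.79 in untreated ZD rats, without overlap. The adaptor Tyrobp had 6.55, 6.36, 6.22, 6.44 and 6.55, against 7.24, 7.04, 6.82, 7.31 and 7.04, also without overlap, a difference of -0.67 (adjusted p = 0.0912 by limma). In contrast, Cd68, Lgmn, C3ar1, Cd14 and Itgam differed by 0.02, -0.01, -0.01, -0.06 and -0.07, with overlapping groups.

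At 5 weeks the largest differences were those of Aif1, the calcium-binding protein Iba1, Cybb and Mpeg1, a pore-forming protein of the phagosome. Aif1 had 5.46, 5.76, 4.29, 5.19 and 4.33 after 5 weeks, against 5.60, 5.66, 5.56, 5.29 and 5.65 in untreated ZD rats, a difference of -0.55 (SE 0.32). Cybb had 7.52, 6.67, 6.28, 6.78 and 6.26, against 7.35, 7.34, 7.07, 7.06 and 7.20, a difference of -0.50 (SE 0.28). Mpeg1 had 7.68, 7.23, 6.56, 7.05 and 7.11, against 7.47, 7.81, 7.62, 7.75 and 7.48, a difference of -0.50 (SE 0.29). For all 3 genes most of the 5-week arrays lay below the untreated range, and the others lay inside or above it. A second, dimmer probe set differed by 0.08 for Aif1, -0.12 for Cybb and -0.03 for Mpeg1.

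Set directly against each other, the 20-week group was lower than the 5-week group for 27 of the 32 genes, against 54.8% of all genes, with a median of -0.23 (-0.14 without 5-week array 6), and none passed by limma (smallest adjusted p = 0.576), against 0.0141% of all genes called lower and 0.00703% higher. At an unadjusted p under 0.05, 5 were lower and 1 higher, against 3.51% and 2.6% of all genes. Mrc1 had 5.03, 4.72, 5.47, 5.80 and 5.80 after 20 weeks, against 6.78, 5.92, 6.29, 7.34 and 5.73 after 5 weeks, a difference of -1.05 (SE 0.35). Adgre1 had 3.61, 3.67, 3.73, 3.35 and 3.64, against 5.13, 4.17, 3.90, 4.59 and 4.07, a difference of -0.77 (SE 0.35). Lyz2 differed by -0.83 (SE 0.41), with 9.86, 9.04, 8.80, 8.54 and 9.13 after 20 weeks, against 10.71, 9.91, 9.41, 10.21 and 9.29 after 5 weeks. Adgre1 and C5ar1 were the only ones of the 32 whose groups did not overlap, against 0.675% of all genes lower in that way.

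**Figure D3:**
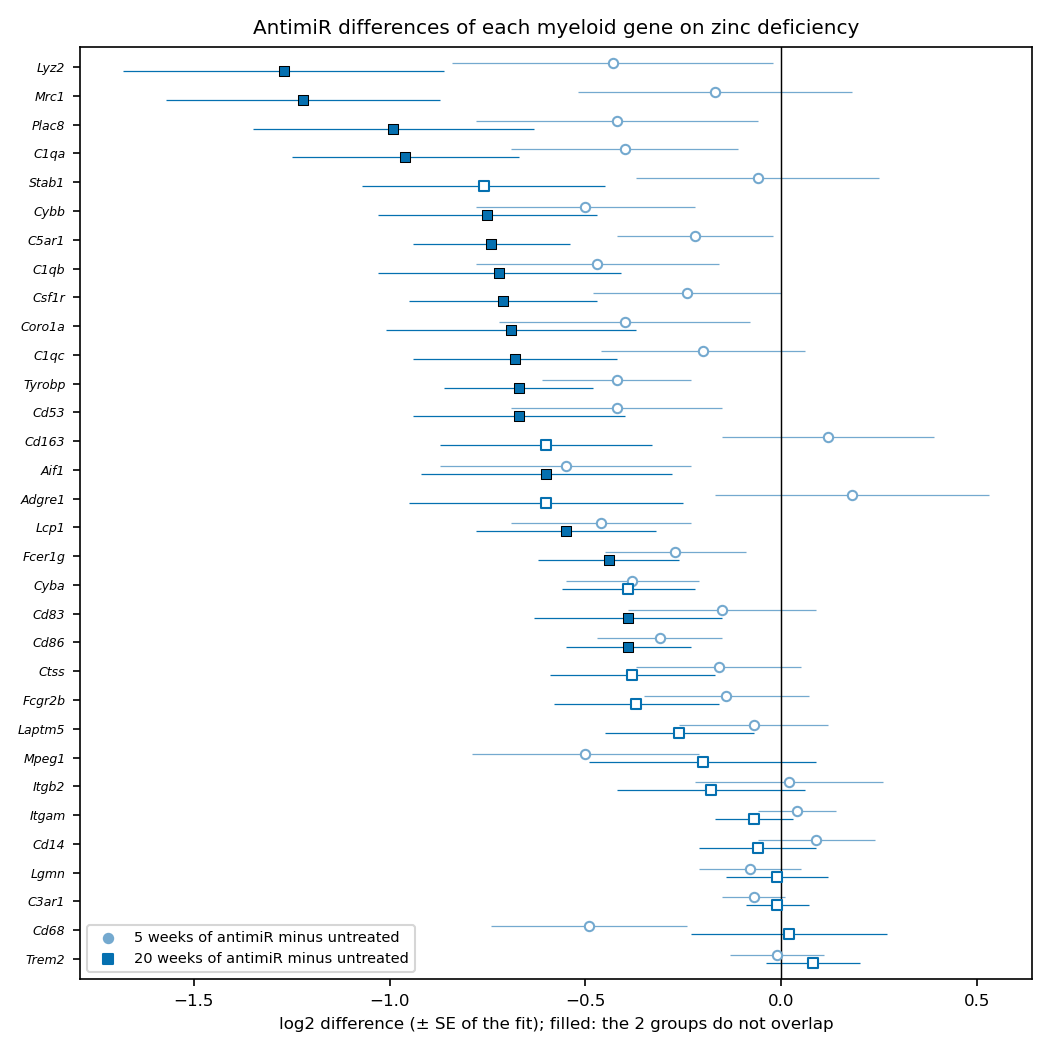
Fitted log2 difference from untreated ZD rats of each of the 32 genes after 5 weeks (circles) and 20 weeks (squares) of antimiR, with bars of ± 1 SE and filled points where the groups do not overlap. Both series use the same 5 untreated arrays; the 5-week differences run from -0.55 to 0.18 with none filled, the 20-week differences from -1.27 to 0.08 with 17 filled, and none passed the adjusted threshold.

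A fit of the 20-week and untreated ZD arrays alone called 5 of the 32 genes lower, against 0.12% of all genes, and the smooth muscle level as a covariate gave 1 call, Mrc1, against 0.134%. Smooth muscle genes stood higher by a median of 1.02 after 20 weeks and 0.68 after 5 weeks, and none of 13 passed; their mean level lay between 7.50 and 9.95 after 20 weeks and 7.52 and 9.71 after 5 weeks, against 7.49 to 8.58 in untreated ZD rats.

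In miR-31 knockout rats the diet difference ran the other way. All 32 genes were lower on ZD than on ZS, against 49% of all genes, with a median difference of -0.72, against 0.005 over all genes. Of the 32, 18 fell and none rose, against 12% and 9.47% of all genes. Without array 32, 30 were lower, against 51.4% of all genes, the median was -0.35, and 6 fell and none rose, against 6.56% and 4.45% of all genes: Stab1, C1qb, C1qc, Cd14, Fcgr2b and Laptm5, all among the 18. Groups that did not overlap were near the background, with 3 of 32 lower, against 7.15% of all genes, and 3 without array 32, against 9.33%.

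The complement genes C1qb and C1qc and the receptors Stab1, Cd14 and Fcgr2b passed with array 32 and without it. C1q binds dead cells and immune complexes and starts the classical complement pathway, and its 3 chains are encoded by C1qb, C1qc and C1qa, which lie next to each other on rat chromosome 5. C1qb had 6.18, 6.50 and 6.99 (lowest, median, highest of 6) on ZD, against 6.64, 8.17, 9.39 and 7.99 on ZS, C1qc had 6.38, 7.0 and 7.11 (lowest, median, highest of 6) on ZD, against 7.24, 8.21, 9.62 and 8.35 on ZS and C1qa had 7.27, 8.09 and 8.40 (lowest, median, highest of 6) on ZD, against 7.75, 9.05, 10.35 and 8.75 on ZS. Only for C1qc did the groups not overlap, and for C1qa array 30 lay among the ZD values. C1qb fell by 1.50 (SE 0.32, adjusted p = 0.00158 by limma), C1qc by 1.44 (SE 0.26, adjusted p = 0.000387) and C1qa by 1.01 (SE 0.30, adjusted p = 0.0174). Without array 32 the differences were -1.05 (adjusted p = 0.0161) for C1qb, -1.02 (adjusted p = 0.00243) for C1qc and -0.56 (adjusted p = 0.165, not passing) for C1qa.

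Stab1, a scavenger receptor that clears apoptotic cells and matrix fragments, had 6.40, 7.26 and 7.68 (lowest, median, highest of 6) on ZD, against 8.73, 8.16, 9.77 and 8.54 on ZS. The groups were apart, and Stab1 fell by 1.58 (2.99-fold, SE 0.32, adjusted p = 0.000998 by limma), the largest difference of the 32. Without array 32 it was -1.26 (SE 0.32, adjusted p = 0.0111). Fcgr2b, the inhibitory receptor for IgG, had 6.60, 6.87 and 7.17 (lowest, median, highest of 6) on ZD, against 7.45, 7.76, 8.68 and 7.40 on ZS. Its groups were apart too; it fell by 0.92 (adjusted p = 0.00382), and without array 32 the difference was -0.63 (adjusted p = 0.0399). Cd14, a co-receptor for bacterial lipopolysaccharide, had 6.87, 7.20 and 7.34 (lowest, median, highest of 6) on ZD, against 7.31, 7.97, 8.35 and 7.85 on ZS. It fell by 0.71 (adjusted p = 0.00184), with array 30 inside the ZD range, and without array 32 by 0.55 (adjusted p = 0.0195).

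Laptm5, a lysosomal membrane protein of blood cells, had 8.12, 8.45 and 8.64 (lowest, median, highest of 6) on ZD, against 8.63, 9.26, 10.36 and 8.93 on ZS. It fell by 0.89 (adjusted p = 0.00205 by limma), and without array 32 by 0.54 (adjusted p = 0.011). A second probe set of Laptm5 differed by -1.10 (adjusted p = 0.00302, over all probe sets). Array 30 lay at the top edge of the ZD values.

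The promoters of 4 of these genes are shown because the genes fell together in the knockout rats when all arrays were kept. Without array 32, C1qa did not pass. C1qa and C1qb lie at neighbouring sites, and Laptm5 and Stab1 elsewhere in the genome. Each promoter is 300 bases from RefSeq (GRCr8), 250 before and 50 after the start of the gene, read on the gene's strand. Capitals mark the letters GAGGAA, the core of the box bound by the myeloid factor PU.1 and other ETS proteins, or TTCCTC, the same letters on the opposite strand. They are at chr5:154419884-154420183 (minus strand) for C1qa, chr5:154407778-154408077 (minus) for C1qb, chr5:148371630-148371929 (plus) for Laptm5 and chr16:6367310-6367609 (minus) for Stab1.
C1qa: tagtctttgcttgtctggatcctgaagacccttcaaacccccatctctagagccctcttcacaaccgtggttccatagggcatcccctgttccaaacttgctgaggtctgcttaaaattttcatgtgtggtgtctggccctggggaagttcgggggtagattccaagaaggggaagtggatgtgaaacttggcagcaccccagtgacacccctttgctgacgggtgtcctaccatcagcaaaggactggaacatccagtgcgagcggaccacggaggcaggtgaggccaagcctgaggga
C1qb: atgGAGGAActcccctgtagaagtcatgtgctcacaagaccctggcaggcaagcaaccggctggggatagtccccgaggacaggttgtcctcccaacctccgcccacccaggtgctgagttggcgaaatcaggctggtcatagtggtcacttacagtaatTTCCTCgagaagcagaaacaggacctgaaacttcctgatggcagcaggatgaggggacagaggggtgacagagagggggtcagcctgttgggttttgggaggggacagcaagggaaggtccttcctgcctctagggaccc
Laptm5: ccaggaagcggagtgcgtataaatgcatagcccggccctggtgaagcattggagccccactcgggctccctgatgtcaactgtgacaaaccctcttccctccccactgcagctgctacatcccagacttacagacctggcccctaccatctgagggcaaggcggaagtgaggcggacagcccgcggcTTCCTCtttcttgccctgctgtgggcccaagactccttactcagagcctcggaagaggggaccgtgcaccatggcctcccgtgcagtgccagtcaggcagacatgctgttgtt
Stab1: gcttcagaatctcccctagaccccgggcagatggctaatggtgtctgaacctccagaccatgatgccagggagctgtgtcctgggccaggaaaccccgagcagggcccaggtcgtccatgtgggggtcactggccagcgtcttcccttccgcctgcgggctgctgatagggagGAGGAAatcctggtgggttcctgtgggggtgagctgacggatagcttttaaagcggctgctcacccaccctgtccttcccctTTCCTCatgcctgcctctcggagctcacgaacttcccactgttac
C1qb and Stab1 held the letters once on each strand, Laptm5 once on the opposite strand, and C1qa did not hold them in this window. Of the 32 genes, 24 had a promoter in the table, and 15 of these (62.5%) held GAGGAA on either strand, against 27.6% of 33469 rat promoters. A longer ETS string, AGGAAGT, which overlaps the first by its letters AGGAA, was held by 5 (20.8%), against 8.41%, and TATAAA by 2 (8.33%), against 14.2%. These strings were chosen after the promoters had been searched for several, and a match is a description of the letters only.

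The other 12 genes that fell passed only with array 32. Csf1r had 6.31, 6.90 and 7.03 (lowest, median, highest of 6) on ZD, against 6.93, 7.56, 8.69 and 7.53 on ZS. It fell by 0.90 (adjusted p = 0.00937 by limma), and without array 32 the difference was -0.56 (adjusted p = 0.0926). Array 30 lay among the ZD values and the other 3 above them. The C5a receptor C5ar1 had 5.76, 6.14 and 6.34 (lowest, median, highest of 6) on ZD, against 5.99, 6.49, 7.83 and 6.45 on ZS. Array 30 lay inside the ZD range and the other 3 above it. It fell by 0.59 (adjusted p = 0.0369), against a difference of -0.21 without array 32.

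The adaptor Tyrobp had 6.77, 7.29 and 7.55 (lowest, median, highest of 6) on ZD, against 7.17, 8.03, 8.71 and 7.64 on ZS. Another adaptor, Fcer1g, the common chain of Fc receptors, had 8.01, 8.30 and 8.56 (lowest, median, highest of 6) on ZD, against 8.24, 8.97, 9.83 and 8.71 on ZS. Tyrobp and Fcer1g fell by 0.64 and 0.65, and without array 32 the differences were -0.37 and -0.35. For both, array 30 lay inside the ZD range and the other 3 arrays above it. Cyba, the small subunit of the NADPH oxidase, had 6.90, 7.21 and 7.49 (lowest, median, highest of 6) on ZD, against 7.22, 8.07, 8.63 and 7.58 on ZS. It fell by 0.66, with a difference of -0.41 without array 32, and its second probe set differed by -0.20 (adjusted p = 0.177 over all probe sets). Ctss, the lysosomal protease cathepsin S, had 8.74, 9.25 and 9.36 (lowest, median, highest of 6) on ZD, against 9.21, 9.77, 10.83 and 9.50 on ZS. It fell by 0.68, with a difference of -0.35 without array 32.

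Of the adhesion and cytoskeletal genes, Coro1a had 6.61, 6.96 and 7.30 (lowest, median, highest of 6) on ZD, against 6.94, 8.09, 10.03 and 7.56 on ZS. It fell by 1.20 (SE 0.33), and without array 32 the difference was -0.57 (SE 0.21). The integrin chain Itgb2 had 5.42, 5.87 and 6.05 (lowest, median, highest of 6) on ZD, against 5.78, 6.64, 8.11 and 6.06 on ZS, and its partner Itgam had 3.67, 3.84 and 3.96 (lowest, median, highest of 6) on ZD, against 3.94, 4.05, 4.47 and 4.35 on ZS. They fell by 0.83 and 0.38, with differences of -0.34 and -0.29 without array 32; for Itgb2, array 32 lay more than 1 unit above the next array. Lcp1, the actin-bundling protein plastin of leukocytes, had 8.61, 8.84 and 9.21 (lowest, median, highest of 6) on ZD, against 8.67, 9.64, 10.67 and 9.41 on ZS, and Aif1 had 5.17, 6.07 and 6.59 (lowest, median, highest of 6) on ZD, against 5.90, 7.37, 8.27 and 6.58 on ZS. They fell by 0.73 and 0.97, with differences of -0.38 and -0.56 without array 32, and a second, dimmer probe set of Aif1 differed by -0.03.

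The 14 genes that did not pass had differences from -0.89 for Plac8 to -0.03 for Cd68. Cd68 had 7.55, 7.93 and 8.19 (lowest, median, highest of 6) on ZD, against 7.90, 7.81, 8.14 and 7.94 on ZS, with the groups fully overlapping. Lyz2 had 8.92, 9.59 and 9.80 (lowest, median, highest of 6) on ZD, against 8.79, 10.66, 12.33 and 9.44 on ZS. Its difference was -0.83 (SE 0.42, adjusted p = 0.161 by limma), and -0.15 without array 32, with array 30 below the ZD range and array 33 inside it. Mrc1 had 6.32, 7.09 and 7.47 (lowest, median, highest of 6) on ZD, against 6.53, 7.73, 9.13 and 7.72 on ZS, a difference of -0.79 and of -0.34 without array 32. Adgre1 and Cd68 were the ones that were not lower without array 32, at 0.02 and 0.03.

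**Figure D4:**
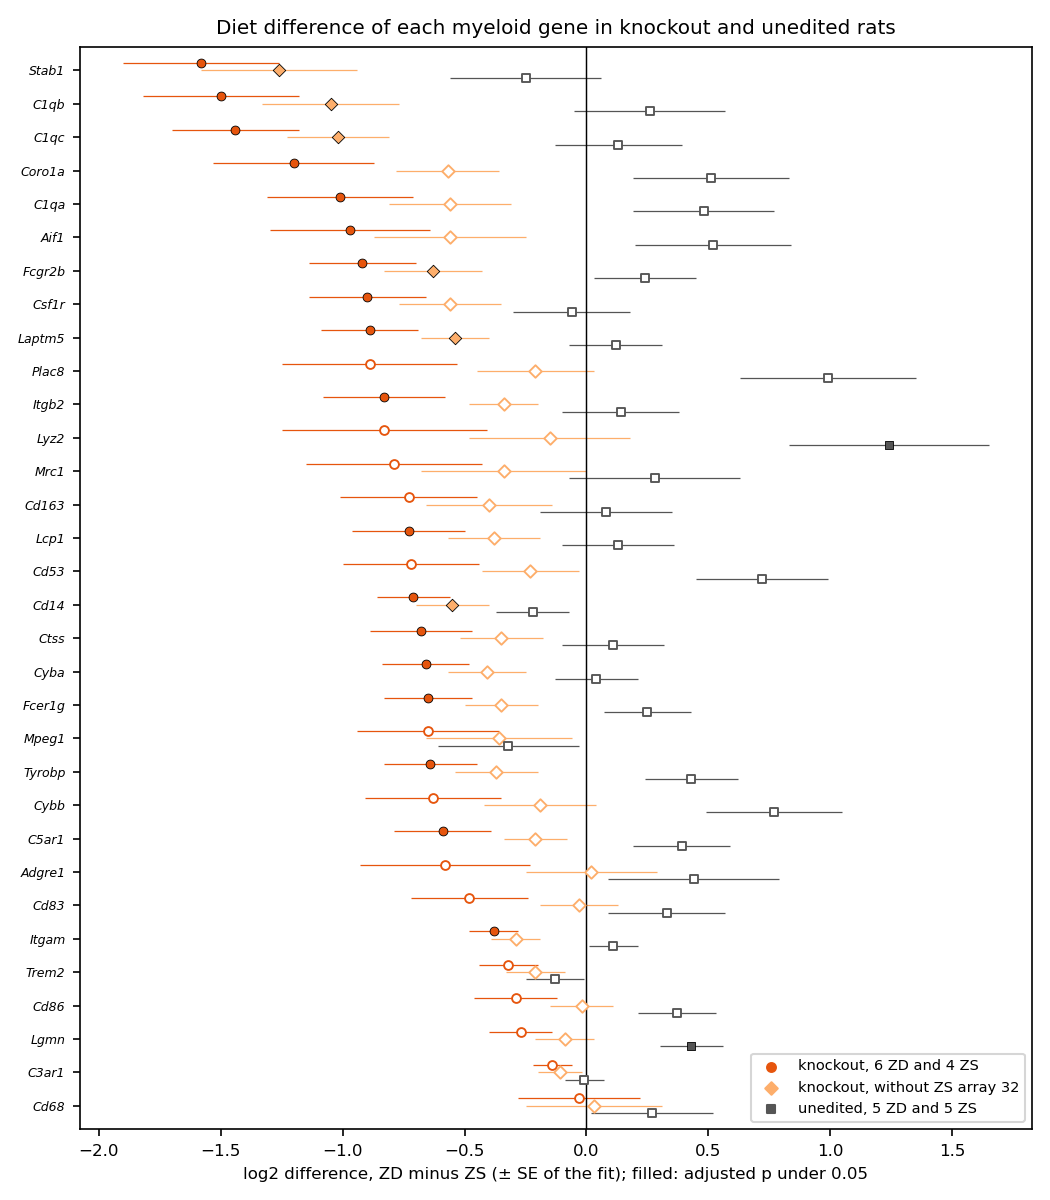
Fitted log2 difference, ZD minus ZS, of each of the 32 genes in miR-31 knockout rats (circles with all arrays, diamonds without ZS array 32) and in unedited rats (squares), with bars of ± 1 SE and filled points where limma's adjusted p was under 0.05. The knockout differences with all arrays run from -1.58 to -0.03, with 18 filled, and the unedited differences from -0.32 to 1.24, with 2 filled.

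Genes of other cell types moved with the myeloid genes in the knockout rats. Fallen on ZD were 6 of 13 smooth muscle genes (median -1.24), 5 of 12 fibroblast genes (median -0.82), 5 of 11 T cell genes (median -0.65) and 4 of 11 endothelial genes (median -0.49), against 12% of all genes. Without array 32 these counts were 2, 0, 0 and 3, against 6.56%. The smooth muscle level lay between 9.54 and 11.10 on ZD, against 10.96 to 11.89 on ZS, and the fibroblast level between 8.94 and 10.01, against 9.51 to 11.35. The T cell level lay between 5.54 and 5.96 on ZD, against 5.63 to 7.79 on ZS, and the epithelial level between 12.00 and 12.18, against 11.83 to 12.15. With the smooth muscle level as a covariate, 5 genes passed with all arrays, against 5.94% of all genes, and 3 without array 32, against 4.71%; the part of the other lists in the result was not tested. A fit of the 10 knockout arrays alone called 6 of the 32 lower, against 7.96% of all genes, and 5 without array 32, against 5.54%. Leaving out array 30, the lowest of the ZS group for 26 genes, gave 26 calls, against 12.9% of all genes.

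The difference between the diet effects, knockout minus unedited, was below 0 for all 32 genes, against 51.2% of all genes, with a median of -0.98. Of the 32, 16 passed, all with a lower diet effect in knockout rats, against 4.61% of all genes lower and 3.78% higher. Without array 32 all 32 stayed below 0, against 52.5% of all genes, the median was -0.55, and 8 passed, against 2.63% of all genes lower and 1.7% higher: C1qb, C1qc, C5ar1, Cd53, Coro1a, Laptm5, Plac8 and Tyrobp, all among the 16. This comparison uses the same knockout arrays as the one before. Knockout and unedited arrays form separate sets, so a diet effect that differs by genotype cannot be told apart from one that differs by set. Of the 16, Cd53, Cybb, Lgmn, Lyz2 and Plac8 had not passed for diet in knockout rats.

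For all 16 genes that passed, these 5 included, the knockout and unedited effects had opposite signs. Without array 32 the ZD and ZS knockout means of the 5 lay nearer each other. They were 7.23 and 7.44 for Plac8, 7.87 and 8.09 for Cd53, and 9.48 and 9.63 for Lyz2. For Cybb they were 7.24 and 7.43, and for Lgmn 9.20 and 9.29. The diet effect of Plac8 was -0.89 in knockout rats, against 0.99 in unedited rats, and it had 6.69, 7.33 and 7.62 (lowest, median, highest of 6) on ZD, against 7.20, 7.98, 10.16 and 7.13 on ZS. The difference of the effects was -1.87 (SE 0.51, adjusted p = 0.0235 by limma), and -1.19 without array 32 (adjusted p = 0.0335). Lyz2 had the largest difference of effects, -2.07 (SE 0.58, adjusted p = 0.0283), which did not pass without array 32 (-1.39, adjusted p = 0.0718). Cd53, a tetraspanin of leukocytes, had 7.66, 7.80 and 8.20 (lowest, median, highest of 6) on ZD, against 7.52, 8.72, 10.08 and 8.03 on ZS, while in unedited rats it had 7.76, 7.45, 7.50, 7.53 and 7.67 on ZD, against 7.17, 6.86, 6.53, 6.85 and 6.90 on ZS. The unedited groups were apart, while the ZS knockout arrays lay below, inside and above the range of the ZD knockout arrays. Its effects differed by -1.45 (adjusted p = 0.0234), and by -0.95 without array 32 (adjusted p = 0.0407).

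Cybb had 6.88, 7.26 and 7.55 (lowest, median, highest of 6) on ZD, against 6.84, 7.90, 9.20 and 7.54 on ZS, with effects of -0.63 in knockout rats, against 0.77 in unedited rats. They differed by -1.41 (adjusted p = 0.0275 by limma), and by -0.96 without array 32 (adjusted p = 0.0731, not passing). Its second probe set fell in knockout rats, by 0.73 (adjusted p = 0.0146 over all probe sets). Lgmn had 9.02, 9.22 and 9.41 (lowest, median, highest of 6) on ZD, against 9.16, 9.33, 10.01 and 9.38 on ZS, with effects of -0.27, against 0.43. They differed by -0.69 (adjusted p = 0.0211), and by -0.51 without array 32 (adjusted p = 0.0597, not passing); the second probe set of Lgmn differed by 0.00 at 2 decimals.

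Among the other 11 genes, C1qb had 6.26, 6.34, 5.82, 6.16 and 5.67 on ZD, against 5.51, 5.71, 5.67, 5.75 and 6.34 on ZS, and C1qc had 6.61, 6.55, 6.71, 6.65 and 6.70, against 6.55, 6.63, 6.29, 6.30 and 6.81. C1qa, with 7.97, 7.98, 7.85, 8.03 and 7.79 on ZD, against 7.46, 7.68, 7.06, 7.35 and 7.65 on ZS, was the C1q gene with unedited groups apart. The effects of C1qb differed by -1.75 (adjusted p = 0.0167 by limma), of C1qc by -1.56 (adjusted p = 0.0105) and of C1qa by -1.50 (adjusted p = 0.0272). Without array 32 they were -1.31 (adjusted p = 0.046), -1.14 (adjusted p = 0.0212) and -1.04 (adjusted p = 0.0748, not passing).

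C5ar1 had 6.54, 6.77, 6.44, 6.73 and 6.65 in unedited ZD rats, against 6.35, 6.33, 6.30, 5.91 and 6.26 in unedited ZS rats, and Tyrobp had 7.24, 7.04, 6.82, 7.31 and 7.04, against 6.80, 6.75, 6.45, 6.70 and 6.62. Both were apart, upward on ZD. Their effects differed by -0.98 and -1.07, and by -0.60 (adjusted p = 0.0443 by limma) and -0.80 (adjusted p = 0.0456) without array 32. Coro1a had 6.69, 6.63, 6.32, 6.52 and 6.80 in unedited ZD rats, against 6.44, 6.13, 5.87, 5.97 and 6.03 in unedited ZS rats, and Laptm5 had 7.63, 7.28, 7.14, 7.50 and 7.60, against 7.39, 7.38, 7.08, 7.40 and 7.31. These overlapped, and the effects differed by -1.71 and -1.01, and by -1.08 (adjusted p = 0.0279) and -0.65 (adjusted p = 0.0397) without array 32.

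The remaining 4 passed only with array 32. Fcgr2b had 6.63, 6.25, 6.78, 6.43 and 7.11 in unedited ZD rats, against 6.54, 6.52, 6.06, 6.32 and 6.56 in unedited ZS rats, and Fcer1g had 8.29, 8.01, 7.94, 7.98 and 8.25, against 7.98, 7.92, 7.59, 7.90 and 7.84. Aif1 had 5.60, 5.66, 5.56, 5.29 and 5.65 in unedited ZD rats, against 5.38, 5.10, 4.78, 4.70 and 5.18 in unedited ZS rats, and Itgam had 4.01, 3.57, 3.62, 3.80 and 3.56, against 3.65, 3.71, 3.42, 3.58 and 3.66. In all 4 the unedited groups overlapped. Their effects differed by -1.16, -0.89, -1.50 and -0.49 with all arrays, and by -0.87, -0.60, -1.08 and -0.40 without array 32. In a fit of the 4 groups alone 9 of the 32 passed, against 3.76% of all genes, and 10 without array 32, against 2.75%. Leaving out untreated ZS array 18 gave 10, against 3.55% of all genes, and leaving out ZS knockout array 30 gave 25, against 6.18%.

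Lists of other genes tied to macrophages had medians nearer 0. Of 41 other macrophage genes, 11 fell and 2 rose on ZD in knockout rats (median -0.32), against 12% and 9.47% of all genes. Without array 32, 2 fell and none rose (median -0.08), against 6.56% and 4.45%, so that count was below the background. In unedited rats 3 rose and 1 fell (median 0.13), against 6.94% and 6.95%, near the background or below it. Sirpa, a myeloid receptor for the surface protein Cd47, fell by 0.47 in knockout rats, by 0.38 without array 32, and the lysosomal protease Ctsz by 0.64, by 0.46 without array 32. In unedited rats the lectins Clec7a and Clec4a3 rose by 0.71 and 1.06 and the lipopolysaccharide receptor Tlr4 by 0.94, and the protease Ctsl fell by 0.90. The diet effects of knockout and unedited rats differed for 11 of the 41, 9 of them downward and 2 upward, against 4.61% and 3.78% of all genes, and without array 32 for 5 downward and 1 upward, against 2.63% and 1.7%. Those of Clec7a, Clec4a3, Clec10a and Ctsz differed by -0.91, -1.65, -1.53 and -0.90, and by -0.76, -1.15, -1.13 and -0.72 without array 32, all 4 passing in both fits.

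Of 15 myeloid growth factors and regulators, 3 rose and 4 fell on ZD in knockout rats, against 9.47% and 12% of all genes, and 2 rose and 3 fell without array 32, against 4.45% and 6.56%. In unedited rats 1 rose, against 6.94%, at the background. Klf4, a transcription factor that monocytes and squamous epithelium both use, rose by 0.63 in knockout rats and by 0.50 without array 32, Cebpb rose by 0.40 and by 0.33, and Csf1, the ligand of Csf1r, fell by 0.33 and by 0.26. Runx1 rose by 1.17 in unedited rats. Of 11 genes of monocyte recruitment, Ccl2, the main chemokine that draws monocytes from blood, rose by 2.45 in unedited ZD rats, the only one of the list that passed there. Its list thus had 1 of 11 called higher, against 6.94% of all genes. In knockout rats Ccl5 fell by 1.10 and Cx3cl1 by 0.28, so 2 of 11 fell, against 12% of all genes. Without array 32 Ccl5 differed by -0.49 and did not pass, and Cx3cl1 fell by 0.36, so 1 of 11 fell, against 6.56%. Of 18 genes of activation states, Mmp12 and Il1b rose by 0.95 each in unedited ZD rats and Il10ra and Ccl22 fell by 0.49 and 0.40. These 2 higher and 2 lower of 18 compare with 6.94% and 6.95% of all genes. None of the 18 passed in knockout rats with array 32, against 9.47% of all genes higher and 12% lower. The same held without it, against 4.45% and 6.56%. No gene of these lists, or of the lists of other cell types, passed in an antimiR comparison. Neutrophil genes showed medians of 0.00 on ZD in knockout rats, -0.07 without array 32, and 0.04 in unedited rats, over 7 genes.

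**Figure D5:**
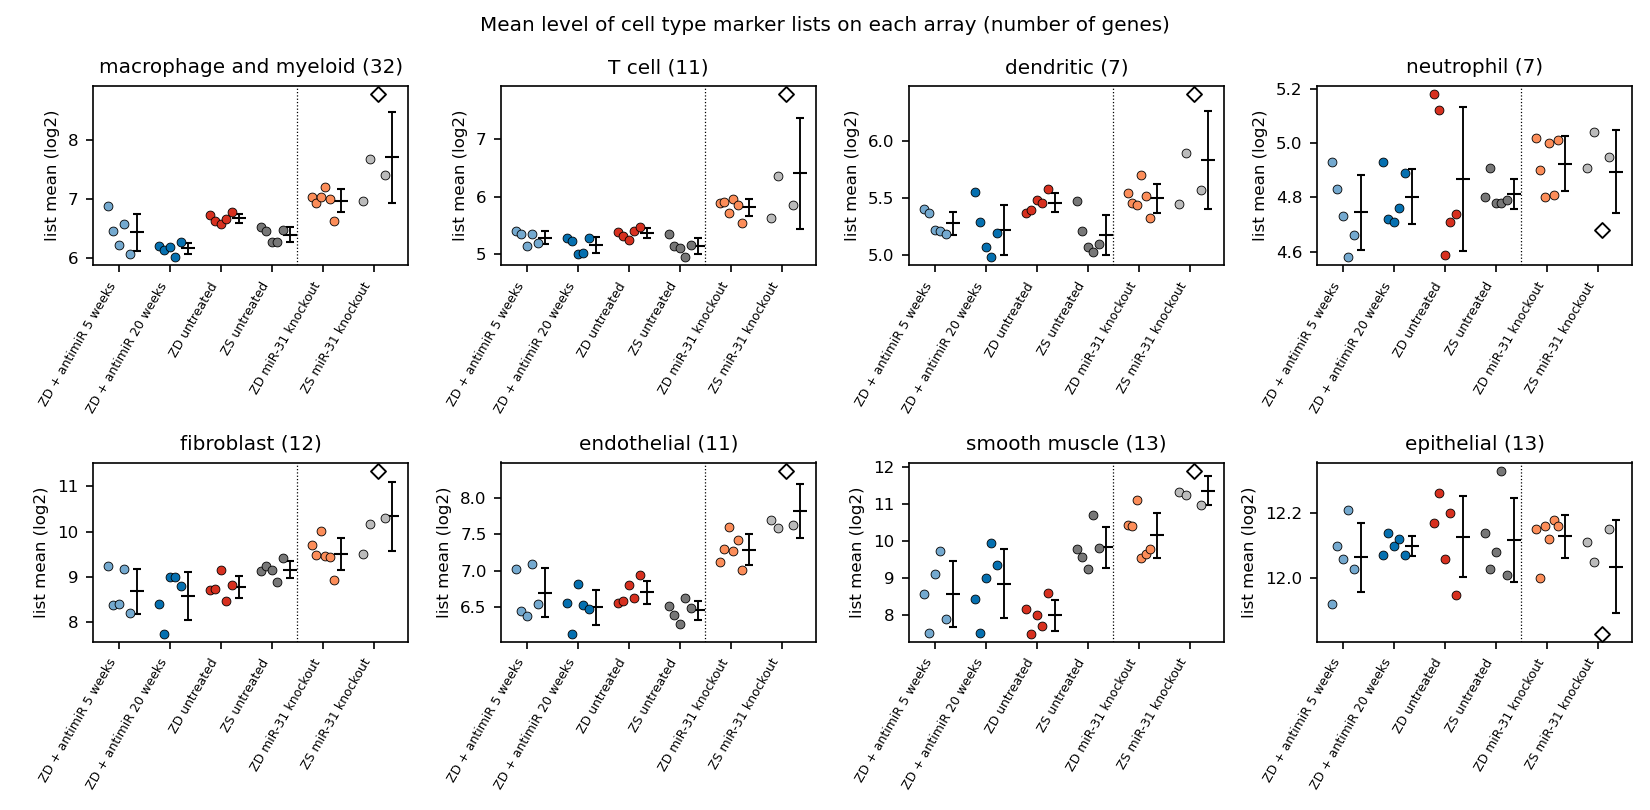
Mean log2 level on each array of the 32 myeloid genes and of 7 marker lists of other cell types, by group, with symbols as in the plots of single genes and the number of genes in each title. ZS knockout array 32 is the highest knockout array for the myeloid, T cell, dendritic, fibroblast, endothelial and smooth muscle lists and the lowest for the neutrophil and epithelial lists, and the smooth muscle level of untreated unedited rats is lower on ZD (7.49 to 8.58) than on ZS (9.24 to 10.70).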

How the data were processed

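Oesophageal RNA of 30 rats was measured on Affymetrix arrays, and the authors deposited log2 values per probe set, made with Affymetrix Expression Console and RMA per the submitters' processing notes (versions not given in the sources used here). Values ran from 2.11 to 14.5. Array medians formed 2 sets, the 20 unedited and the 10 knockout arrays, and the sets were treated as normalized apart. The platform annotation gave a single symbol for 20826 of 31099 probe sets and more than 1 for 436; 9780 had no usable symbol and 57 served as controls. The gene ID of 20758 was found in the rat gene table (GRCr8). This left 14217 genes, 4525 of them with several probe sets, of which the one highest on average was taken.

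With limma (version 3.58.1, under R 4.3.3; lmFit and eBayes), 1 linear model with a coefficient per group was fitted to the log2 values of the 30 arrays, and p-values were adjusted by Benjamini-Hochberg over all genes within each of 6 comparisons, at a threshold of 0.05. Diet effects of knockout and unedited rats were compared as a difference of differences within the sets. Genotype and set coincide, so their parts in that difference cannot be told apart. The fit was tested on simulated data for ZD against ZS in unedited rats: it recovered 86 of 100 changes of 1 log2 unit and 56 of 100 changes of 0.5. There were 8 false calls among the unchanged ones of the 14217 genes. The simulated noise was drawn independently for each gene, with the same SD in all groups. No other genes were changed, while the measured comparison called 986 genes higher and 988 lower. The recovery and false-call rates therefore need not hold for that comparison, and they do not carry over to the knockout comparisons or to genes that move together. The number of arrays, 4 to 6 per group, limits the precision.

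The members, the lists and the alternatives were chosen with earlier results of these data known. Per-array values are given for members that passed in a comparison and for the 3 with the largest difference in each; other genes named are members chosen by role after their values were seen, or up to 4 genes per list with the smallest adjusted p. The alternatives were median centring, quantile normalization over the 30 arrays, a filter that drops the dimmest 30% of genes, eBayes's trend and robust options, averaging a gene's probe sets, the smooth muscle level as a covariate, only the groups compared, and each array left out in turn. Array weights, and the combination of either of 2 of these settings with the loss of array 32, were added after the data were seen. Promoter and microRNA sequences are from RefSeq (GRCr8); no promoter of 8 members was matched.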

Additional observations from a re-analysis of the deposited data

Results flagged for a closer look

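In 9 of 192 combinations of gene and group, the highest or lowest array lay far from the others of its group by Dixon's test; chance gives about 1 in 20. In ZD knockout rats, array 39 was the lowest for Cd163, at 5.19, and for C1qc, at 6.38. In ZS knockout rats, array 32 was the highest for Cd86, at 5.78. In the 20-week antimiR group, array 4 was the lowest for Fcer1g, at 7.40, and for Cybb, at 5.87. In untreated ZD rats, array 15 was the highest for Csf1r, at 6.52, array 14 the lowest for Aif1, at 5.29, and array 11 the highest for Lcp1, at 8.77. In untreated ZS rats, array 19 was the lowest for C5ar1, at 5.91.

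For 16 of the 32 genes the diet effect of knockout rats differed from that of unedited rats by the test of the difference itself (limma, adjusted over all genes). All 16 were lower, against 4.61% of all genes called lower and 3.78% higher. The differences of effects, knockout minus unedited, were -2.07 for Lyz2, -1.87 for Plac8, -1.75 for C1qb, -1.71 for Coro1a, -1.56 for C1qc, -1.50 for C1qa and for Aif1, -1.45 for Cd53 and -1.41 for Cybb. They were -1.16 for Fcgr2b, -1.07 for Tyrobp, -1.01 for Laptm5, -0.98 for C5ar1, -0.89 for Fcer1g, -0.69 for Lgmn and -0.49 for Itgam. With ZS knockout array 32 left out, the ones that passed were C1qb, C1qc, C5ar1, Cd53, Coro1a, Laptm5, Plac8 and Tyrobp. These are 8 of the 32, against 2.63% of all genes called lower and 1.7% higher.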

How the results depend on the processing

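No median of the 32 genes changed sign in the alternatives run, and no called gene did. Single uncalled genes did: for diet in knockout rats, the 32 genes below 0 became 31 with median centring, quantile normalization, the covariate, array weights or the loss of ZD array 38, 30 without ZS array 32 and 28 without it and with the covariate. For the difference of the diet effects they became 31 in that last setting. For diet in unedited rats, 2 genes were called higher, against 6.94% of all genes. They became 4 with median centring (against 7.49%), 0 with quantile normalization (6.67%) and 1 with the mean of all probe sets (6.74%). They became 0 with the smooth muscle covariate (0.598%), 10 with only the groups compared (6.08%) and 5 with array weights (8.83%). With an array left out there were 0 to 1 (4.29% to 8.38%). The covariate moved the median from 0.25 to 0.42. For 20 weeks of antimiR, the count of 0, against 0.485% of all genes called lower, became 1 with the covariate, against 0.134%. It became 5 with only the groups compared, against 0.12%, and 5 with array weights, against 2.26%. It stayed 0 with any array left out, against 0.0422% to 1.58%. The median of -0.58 became -0.47 with the mean of all probe sets, -0.48 with array weights and -0.60 to -0.47 with an array left out. For diet in knockout rats, 18 genes were called lower, against 12% of all genes. They became 5 with the covariate (against 5.94%) and 6 with only the groups compared (7.96%). With an array left out there were 6 to 26 (6.56% to 12.9%), with 6 without ZS array 32 (6.56%). Array weights gave 17 (13%) and moved the median from -0.72 to -0.47. Without array 32, only the groups compared gave 5 (5.54%) and the covariate 3 (4.71%). For the difference of the diet effects, 16 genes were called lower, against 4.61% of all genes. They became 9 with only the groups compared (against 3.76%) and 8 to 25 with an array left out (2.63% to 6.18%). Among the latter were 8 without ZS knockout array 32 (2.63%) and 10 without untreated ZS array 18 (3.55%). Without array 32, only the groups compared gave 10 (2.75%) and the covariate 5 (2.47%). Its median of -0.98 became -0.66 with array weights, and -0.55, -0.55 and -0.61 without array 32, alone and with these settings, and lay between -1.22 and -0.55 with an array left out. The cause was not tested. For 5 weeks of antimiR and for 20 against 5 weeks, no alternative gave a call; with an array left out their medians of -0.23 lay between -0.36 and -0.16 and between -0.32 and -0.14, the values farthest toward -0.36 and -0.14 being those without 5-week array 6. No paired analysis was possible because each rat has a number of its own. Dim genes were measured near background, and changes of 0.5 were often missed in the simulation of ZD against ZS in unedited rats.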

Other observations

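Other immune and vessel genes give context to the myeloid genes. Of 10 mast cell genes, all were lower after 20 weeks than after 5 weeks of antimiR, against 54.8% of all genes, with a median of -0.39 and none passing. Their mean level lay between 4.01 and 4.34 after 20 weeks, against 4.17 to 5.77 after 5 weeks. The highest 5-week arrays were 8, at 5.77, and 9, at 4.96. Single high arrays also occurred in untreated ZD rats (array 14, 5.39) and untreated ZS rats (array 19, 5.50). The T cell receptor chain gene Cd3e fell by 0.91 on ZD in knockout rats with all arrays, but its difference was -0.28 without array 32 (adjusted p = 0.334 by limma). Its diet effect differed from that of unedited rats by -1.49 (adjusted p = 0.0347 by limma) and by -0.86 without array 32 (adjusted p = 0.0343). The receptors for vascular endothelial growth factor Flt1 and Kdr rose by 0.71 and 0.68 on ZD in unedited rats, and their diet effects in knockout rats differed from these by -0.86 and -1.12 with all arrays. Without array 32 these were -0.76 and -0.87 and did not pass (adjusted p = 0.0685 and 0.0664 by limma). Egfl7, secreted by endothelial cells, fell by 0.61 on ZD in knockout rats and by 0.53 without array 32. When limma estimated a weight for each array from the scatter of all genes, array 32 received 0.274, the lowest of the 30.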
